A study of Homo sapiens with 16 samples.

Results

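The genes described here are 34 genes of glucose uptake, glycolysis and the transcriptional response to low oxygen. They were chosen by symbol: each is the entry, in both deposited count tables, whose Ensembl identifier maps to 1 of 34 listed symbols, out of 67938 gene identifiers in all. All 34 passed the filter on low counts in HepG2, 31 passed it in SNU-449, and all 34 passed it when both lines were fitted together. CA9, SLC2A3 and EGLN3 were the members that did not pass in SNU-449.

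RNA came from SNU-449, a hepatocellular carcinoma line, and from HepG2, a liver cell line with many hepatocyte traits that the labels call hepatocellular carcinoma cells. Each line was transfected for 48 h with siPANAD-1 and siPANAD-2 given together, short interfering RNAs against PANAD (the gene C7orf25), or with a negative control siRNA (NC). Cells were then separated into nuclear and cytoplasmic fractions, and every group had 2 libraries, called biological duplicates in the study's design text; the spread between them is the error used here. The 8 groups were therefore SNU-449 nucleus siPANAD, SNU-449 nucleus NC, SNU-449 cytoplasm siPANAD, SNU-449 cytoplasm NC, HepG2 nucleus siPANAD, HepG2 nucleus NC, HepG2 cytoplasm siPANAD and HepG2 cytoplasm NC. Every cell was transfected and no group was left untreated, the mixture does not separate the 2 siRNAs, and no low-oxygen culture is named in the labels. SNU-449 was grown in RPMI and HepG2 in DMEM, so the line and its medium cannot be told apart.

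Glycolysis splits glucose into pyruvate in the cytosol, and lactate dehydrogenase and a lactate exporter carry the product out of the cell. When oxygen is low, the prolyl hydroxylases of the EGLN family stop marking the alpha subunits HIF1A and EPAS1 (HIF-2 alpha) for destruction by VHL, and the stable subunits pair with ARNT and bind DNA at a short core, ACGTG or GCGTG. Most genes of the glycolytic chain, glucose transporters, the angiogenic factor VEGFA and the pH regulator CA9 are textbook targets of this response, and liver tumours often show it.

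The 16 libraries held 16238235 to 30321908 counts, so a count of 0 allowed up to 3 counts, or 0.0989 to 0.185 CPM, the count relative to the total of its library. C7orf25 itself had 0 to 7 counts in nuclear and 0 to 3 counts in cytoplasmic libraries, too few to check the knockdown. Of its exonic bases, 61.1% overlap another gene on the same strand, so its counts may be incomplete. The nuclear RNA MALAT1 was at 370 to 634 CPM in nuclear libraries, against 2.21 to 5.84 CPM in cytoplasmic ones. Of 10 hepatocyte markers, 3 exceeded 1 CPM on average in SNU-449, where APOB had no count, and all 10 did in HepG2, with summed levels of 21.4 to 277 CPM in SNU-449 and 2.37e+04 to 3.15e+04 CPM in HepG2. Of 10 mesenchymal markers, 9 exceeded 1 CPM in SNU-449 and 5 in HepG2. Their summed levels overlapped, at 1.84e+03 to 3.6e+03 CPM in SNU-449 and 1.24e+03 to 7.46e+03 CPM in HepG2. Of 8 blood and immune markers, 1 exceeded 1 CPM in SNU-449 and 3 in HepG2. The 34 genes took 1.43% to 1.52% of all counts in SNU-449 nuclei and 2.13% to 2.22% in SNU-449 cytoplasm. In HepG2 nuclei their share was 0.799% and 0.846% with siPANAD, against 1.25% and 1.33% with NC. In HepG2 cytoplasm it was 1.45% and 1.61% with siPANAD, against 2.27% and 2.1% with NC. Levels below are CPM after TMM scaling within a line, which aligns libraries on the bulk of their genes rather than on their totals.

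The promoters of 31 members were in the RefSeq-derived table (build GRCh38.p14), and 4 are shown as examples of the patterns described next, chosen after their values were seen. ADM fell in both lines and fractions (chr11:10304823-10305072, plus strand). HK2 fell in HepG2 and was near absent from SNU-449 (chr2:74834920-74835169, plus strand). SLC16A3 moved in opposite directions in the 2 lines (chr17:82228792-82229041, plus strand), and so did BNIP3 in the cytoplasm (chr10:131981924-131982173, minus strand). Each run is the 250 bases before an annotated start, written 5′ to 3′ on the strand of the gene, with every ACGTG or GCGTG on either strand (CACGT or CACGC where read from the other strand) in capitals.
ADM: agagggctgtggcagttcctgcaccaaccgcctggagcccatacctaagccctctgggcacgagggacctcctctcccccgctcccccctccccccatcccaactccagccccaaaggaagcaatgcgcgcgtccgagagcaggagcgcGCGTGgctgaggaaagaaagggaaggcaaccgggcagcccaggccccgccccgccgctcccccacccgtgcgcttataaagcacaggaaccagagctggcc
HK2: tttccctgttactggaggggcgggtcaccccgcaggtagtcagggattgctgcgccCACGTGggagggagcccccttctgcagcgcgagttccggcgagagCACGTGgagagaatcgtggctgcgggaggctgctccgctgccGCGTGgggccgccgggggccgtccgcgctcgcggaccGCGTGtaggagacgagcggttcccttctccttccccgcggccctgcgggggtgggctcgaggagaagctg
SLC16A3: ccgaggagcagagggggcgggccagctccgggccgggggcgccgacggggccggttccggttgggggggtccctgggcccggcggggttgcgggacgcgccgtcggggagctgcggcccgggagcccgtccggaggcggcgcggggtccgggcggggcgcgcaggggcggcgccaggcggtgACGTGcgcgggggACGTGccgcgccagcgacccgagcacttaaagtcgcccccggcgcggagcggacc
BNIP3: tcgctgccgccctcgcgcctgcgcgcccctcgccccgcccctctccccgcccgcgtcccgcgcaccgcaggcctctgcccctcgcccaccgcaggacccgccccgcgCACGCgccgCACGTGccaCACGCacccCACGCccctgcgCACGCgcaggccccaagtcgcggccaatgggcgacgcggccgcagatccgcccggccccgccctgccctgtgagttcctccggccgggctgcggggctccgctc
In the runs shown, ADM had 1 match and SLC16A3 had 2. HK2 had 6 matches, 4 of them in 2 copies of CACGTG, which matches on both strands and is also read by other factors such as MYC. BNIP3 had 6 matches, 2 of them in 1 CACGTG. Over windows of 300 bases (250 before and 50 after the start), 41 of the 60 member windows (68.3%) held a match, against 17012 of 35116 windows of all genes (48.4%). ACGTG alone stood in 25 member windows (41.7%), against 7518 of all windows (21.4%). By gene, 29 of the 31 members had a match in at least 1 window, and PGAM1 and EGLN3 had none. SLC16A3 had 5 windows, 3 of them with a match, and HK2 had 2, each with a match. Only 1 of them is shown for each of these 2 genes. ADM and BNIP3 had 1 window each. These letters mark no binding in these cells, and windows were not matched for base composition.

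Before any effect of siPANAD, many members differed between the lines, at rates near those of all genes. In NC cytoplasm, fitted over all 16 libraries, 13 of 34 members (38.2%) were higher in SNU-449 and 15 (44.1%) were lower (adjusted p under 0.05). Of all 20459 genes tested, 34.3% were called higher and 36.9% lower, so the counts are not particular to the members. The median member differed by 0.12 on the log2 scale and the median gene by -0.08, and the member median was 0.04 without HepG2 cytoplasm NC replicate 1, 0.23 without NC replicate 2, 0.08 without SNU-449 cytoplasm NC replicate 2 and 0.27 with the replicate block. The glucose transporter SLC2A3 had 0 counts in both SNU-449 NC cytoplasm libraries and 4 counts over all 8 SNU-449 libraries, against a mean of 689 CPM in HepG2 NC cytoplasm. With 3 counts per library as the limit, it was at least 3182-fold lower in SNU-449. Carbonic anhydrase CA9, a membrane enzyme that acidifies the outside of hypoxic cells, had 1 count over the 8 SNU-449 libraries and averaged 71.6 CPM in HepG2 NC cytoplasm, at least 331-fold lower in SNU-449. Both genes therefore carry information in HepG2 alone.

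The lines also differed in the isozymes of single steps. Levels were divided by the merged length of all annotated exons of a gene. That length can exceed the length of the expressed transcript, so the shares are approximate. HK2 made up 1.36% of the HK1, HK2 and HKDC1 level in SNU-449 NC cytoplasm and 75.1% in HepG2 NC cytoplasm. HK1 made up 43.7% in SNU-449 and 0.318% in HepG2, and HKDC1, a hexokinase-like gene, made up 54.9% in SNU-449 and 24.6% in HepG2. Among the phosphofructokinases, PFKP held 85.1% in SNU-449 and 31.7% in HepG2, while the liver form PFKL held 12.4% in SNU-449 and 68% in HepG2. Of the 4 bifunctional PFKFB kinases, which set the level of fructose 2,6-bisphosphate, PFKFB3 held 93.6% in SNU-449 and 17.9% in HepG2, and PFKFB4 5.95% in SNU-449 and 65.4% in HepG2. The shares of ENO1 among the 3 enolases were alike, 98.2% in SNU-449 and 94.8% in HepG2. The housekeeping enzyme GAPDH did not pass the test between the lines (log2 difference -0.13 ± 0.13 SE, adjusted p = 0.401).

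**Figure D1:**
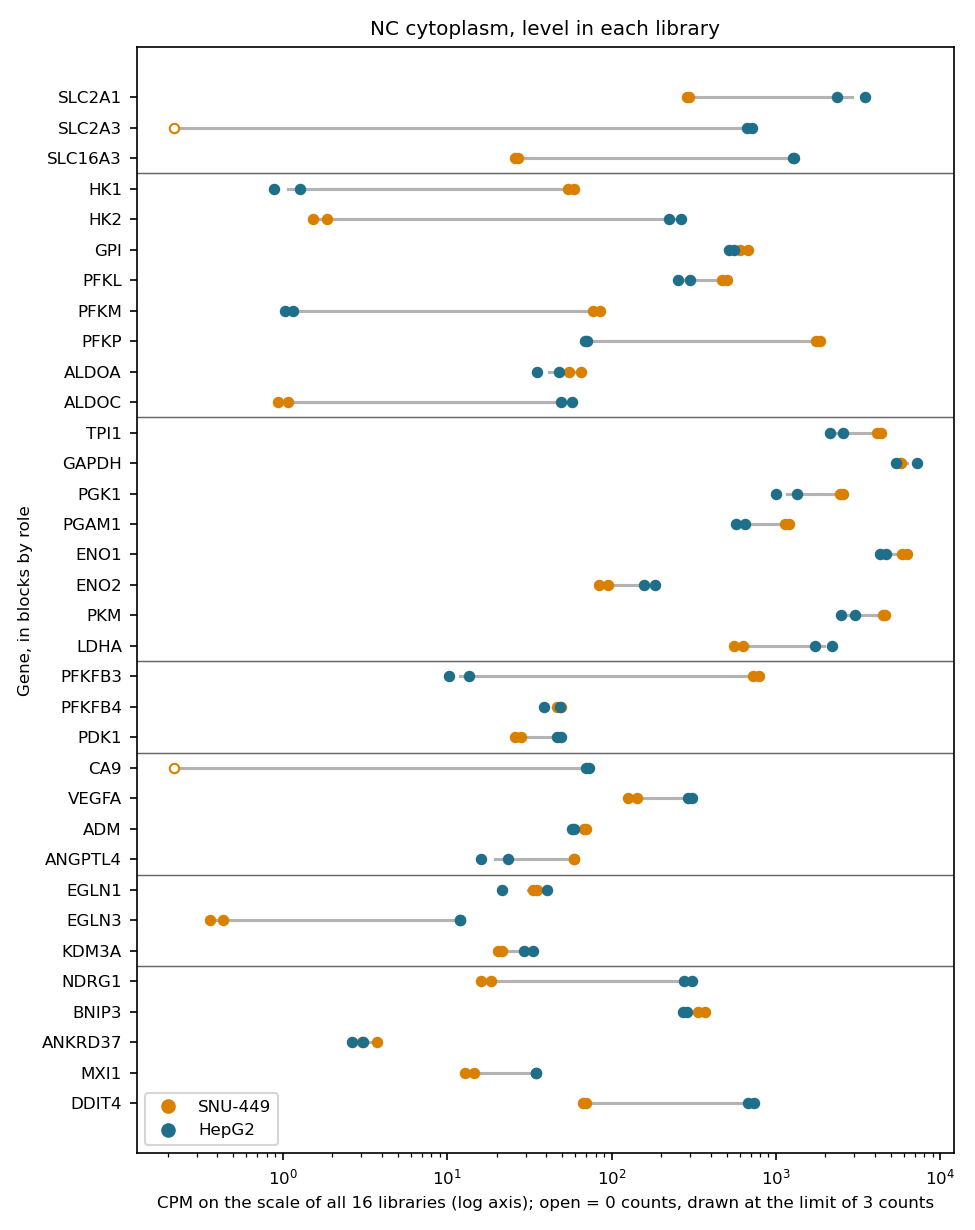
Level of each of the 34 genes in each NC cytoplasm library (x, CPM on the scale of all 16 libraries, log axis), SNU-449 and HepG2, in blocks by role. SLC2A3 and CA9 sit at the limit of 3 counts in SNU-449 (open points), HK1, PFKM, PFKP and PFKFB3 lie far to the right in SNU-449, and HK2, SLC16A3 and ALDOC far to the right in HepG2.

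With siPANAD, more members fell than rose in all 4 comparisons with NC. The same held for all genes tested, by a much narrower margin, so the direction alone is not particular to the members. In SNU-449 nuclei 4 of 31 tested members rose and 10 fell, where 22.1% and 23.9% of all 17895 genes tested were called higher and lower. In SNU-449 cytoplasm 3 rose and 9 fell, with backgrounds of 19.6% and 20.1%. In HepG2 nuclei 3 of 34 rose and 16 fell, with backgrounds of 22.0% and 23.6% of 17499 genes. In HepG2 cytoplasm 4 rose and 18 fell, with backgrounds of 23.7% and 24.2%. The count of risers in HepG2 nuclei was 1 without siPANAD replicate 2 of those nuclei. In bulk RNA, fewer cells that express a gene and less RNA per cell cannot be told apart.

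The median log2 fold change of the members was -0.14 in SNU-449 nuclei and -0.06 in SNU-449 cytoplasm, against -0.01 and 0.04 for all genes. It was -0.43 in both HepG2 fractions, against -0.03 in the nucleus and 0.00 in the cytoplasm for all genes. These medians moved with single libraries: that of SNU-449 nuclei was -0.09 without siPANAD replicate 2 of those nuclei and -0.21 without siPANAD replicate 1, and that of SNU-449 cytoplasm was -0.03 without NC replicate 2 of that fraction and -0.10 without NC replicate 1. In HepG2 cytoplasm the median was -0.28 without NC replicate 2 of that fraction, and in HepG2 nuclei it was -0.27 with library totals as the scale, where the median gene was at 0.14. Falls of at least 2-fold that passed the test were seen for 2 members in SNU-449 nuclei and 5 in SNU-449 cytoplasm, with backgrounds of 4.33% and 5.60%. They were seen for 9 members in HepG2 nuclei and 10 in HepG2 cytoplasm, with backgrounds of 6.68% and 8.81%. Rises of that size were fewer, at 2 and 1 members in SNU-449 nucleus and cytoplasm and 1 in each HepG2 fraction, with backgrounds of 7.33% and 5.62% in SNU-449 and 10.1% and 11.5% in HepG2. SLC16A3 and PFKM were the 2 in SNU-449 nuclei, and 1 was left without siPANAD replicate 2 of those nuclei. SLC2A1, VEGFA and ADM fell in all 4 comparisons, and 906 of the 15017 genes tested in both lines (6.03%) did so. HK1, GPI, PFKL, TPI1, PGAM1, ENO2, KDM3A and ANKRD37 passed the test in none, a state shared by 17.2% of those genes.

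**Figure D2:**
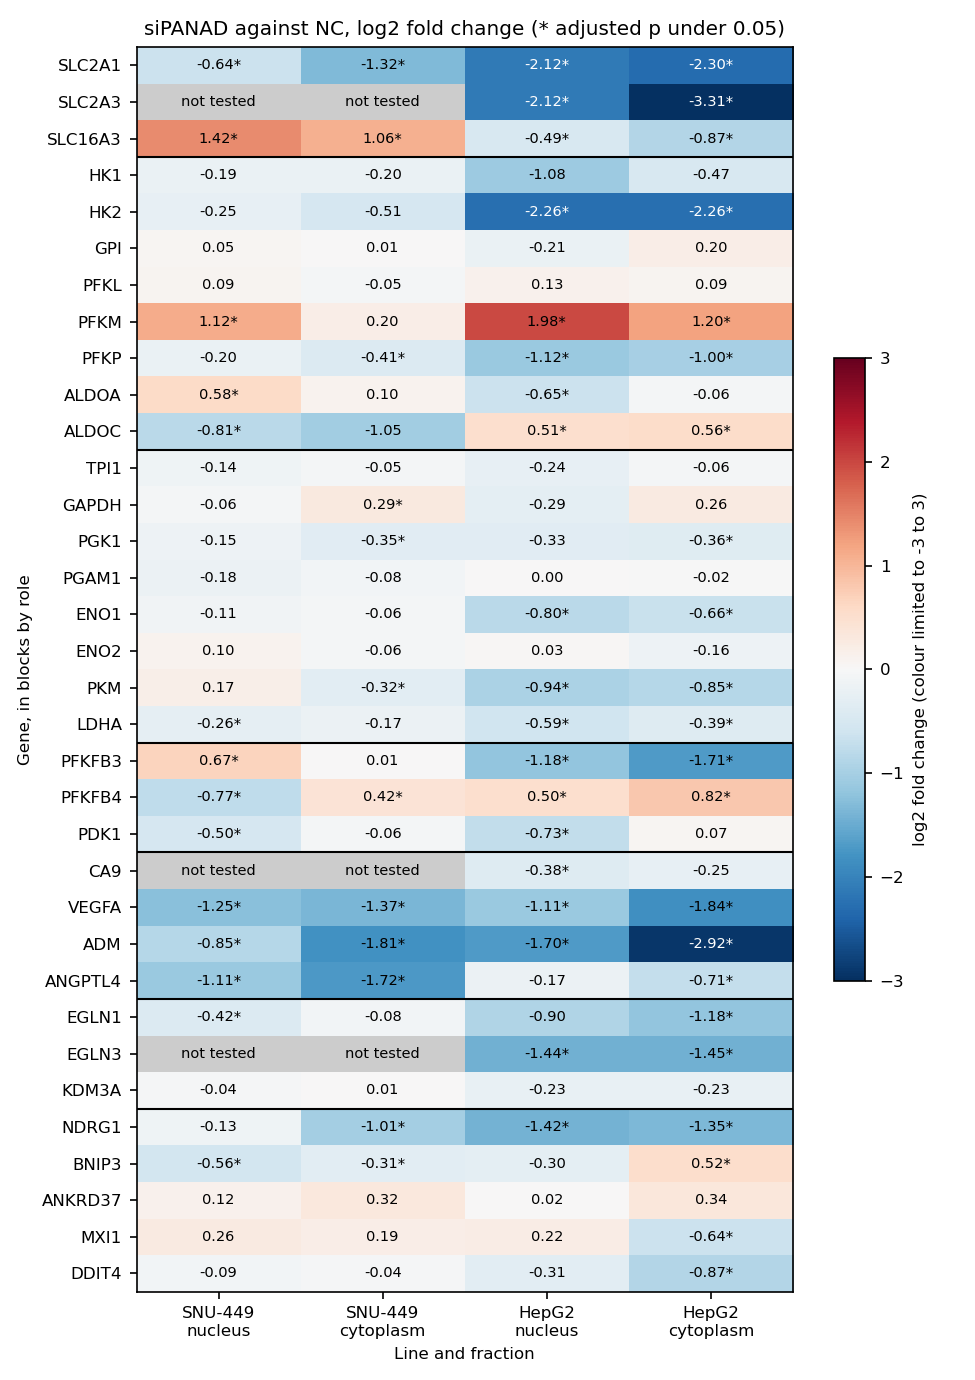
Log2 fold change of siPANAD against NC for the 34 genes (rows, in blocks by role) in the nucleus and cytoplasm of SNU-449 and of HepG2 (columns), with an asterisk where the adjusted p was under 0.05 and grey where the gene was not tested. The rows of SLC2A1, VEGFA and ADM are blue in all 4 columns, and SLC16A3 is red in SNU-449 and blue in HepG2.

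The 3 transporters did not move together in the 2 lines. SLC2A1, the widespread glucose transporter GLUT1, was at 140 and 143 CPM in SNU-449 siPANAD nuclei, against 226 and 216 CPM in NC nuclei. In SNU-449 cytoplasm it was at 119 and 116 CPM with siPANAD, against 294 and 292 CPM with NC. In HepG2 nuclei it was at 431 and 450 CPM with siPANAD, against 1873 and 1943 CPM with NC. In HepG2 cytoplasm it was at 600 and 568 CPM with siPANAD, against 3420 and 2325 CPM with NC. The siPANAD libraries were the lower ones in each of these sets, with no overlap. The log2 fold changes were -0.64 ± 0.09 and -1.32 ± 0.09 (SE) in SNU-449 nucleus and cytoplasm, and -2.12 ± 0.16 and -2.30 ± 0.16 in HepG2 nucleus and cytoplasm, with adjusted p of 1.9e-07 or less.

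SLC2A3, the high-affinity transporter GLUT3, was measurable in HepG2 alone. It was at 126 and 142 CPM in siPANAD nuclei, against 588 and 576 CPM in NC nuclei. In the cytoplasm it was at 66.5 and 70.1 CPM with siPANAD, against 657 and 701 CPM with NC. It was the most strongly lowered of the 34 genes in HepG2 cytoplasm, at a log2 fold change of -3.31 ± 0.14 (a 9.95-fold fall, adjusted p = 3.2e-15), and it fell by 2.12 ± 0.13 on the log2 scale in the nucleus. Its near-identical neighbour SLC2A14 had 1929 and 1902 counts in siPANAD nuclei and 2120 and 2184 in NC nuclei, 61.2% and 17.8% of the SLC2A3 counts. In the cytoplasm SLC2A14 had 142 and 175 counts with siPANAD and 537 and 1022 with NC, 18.4% and 5.89% of the SLC2A3 counts. Reads of the 2 genes may be partly exchanged.

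SLC16A3, the lactate exporter MCT4, went the other way in SNU-449. It was at 29.3 and 33.0 CPM in SNU-449 siPANAD nuclei, against 11.7 and 11.5 CPM in NC nuclei, and at 57.2 and 53.5 CPM in siPANAD cytoplasm, against 27.4 and 25.5 CPM in NC cytoplasm. In HepG2 nuclei it was at 464 and 460 CPM with siPANAD, against 531 and 764 CPM with NC. In HepG2 cytoplasm it was at 705 and 673 CPM with siPANAD, against 1255 and 1270 CPM with NC. It thus rose in SNU-449, by 1.42 ± 0.12 in the nucleus and 1.06 ± 0.11 in the cytoplasm, and fell in HepG2, by 0.49 ± 0.15 and 0.87 ± 0.15 (log2). Higher in SNU-449 cytoplasm with lower in HepG2 cytoplasm was seen in 1.56% of genes tested in both lines. The fall in HepG2 nuclei rested on single libraries: it missed the threshold without HepG2 nucleus NC replicate 2 or either HepG2 nucleus siPANAD library, with log2 values down to -0.22 and adjusted p up to 0.256.

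Of the 8 genes of the upper, energy-consuming steps, 2 rose and 1 fell in SNU-449 nuclei, 1 fell in SNU-449 cytoplasm, 2 rose and 3 fell in HepG2 nuclei, and 2 rose and 2 fell in HepG2 cytoplasm. Of all genes, 22.1% rose and 23.9% fell in SNU-449 nuclei, and 19.6% and 20.1% in SNU-449 cytoplasm. The shares were 22.0% and 23.6% in HepG2 nuclei, and 23.7% and 24.2% in HepG2 cytoplasm. HK2, the inducible hexokinase that traps glucose as its phosphate, fell in HepG2 by 2.26 ± 0.13 in the nucleus and 2.26 ± 0.14 in the cytoplasm (log2). It was at 45.2 and 45.7 CPM in HepG2 siPANAD nuclei, against 209 and 227 CPM in NC nuclei, and at 47.3 and 53.3 CPM in siPANAD cytoplasm, against 222 and 260 CPM in NC cytoplasm. In SNU-449 it was at 0.559 to 1.84 CPM in all 8 libraries and did not pass the test. HK1, the constitutive hexokinase, was at 49.1 to 70.5 CPM in SNU-449 and 0.284 to 1.25 CPM in HepG2, and passed the test in no comparison.

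The 3 phosphofructokinase genes, which encode the main control step, moved apart. PFKM, the muscle form, was at 214 and 255 CPM in SNU-449 siPANAD nuclei, against 106 and 109 CPM in NC nuclei. In HepG2 nuclei it was at 6.21 and 5.21 CPM with siPANAD, against 1.38 and 1.5 CPM with NC. Those nuclear rises were 1.12 ± 0.09 in SNU-449 and 1.98 ± 0.24 in HepG2 (log2). The cytoplasmic change was 0.20 ± 0.10 in SNU-449, which did not pass the test (adjusted p = 0.107), and 1.20 ± 0.30 in HepG2, at 2.48 and 2.51 CPM with siPANAD against 1.01 and 1.13 CPM with NC. PFKP, the platelet form, fell by 0.41 ± 0.09 in SNU-449 cytoplasm (1374 and 1349 CPM with siPANAD, 1782 and 1830 CPM with NC) and by 1.0 ± 0.13 in HepG2 cytoplasm (33.8 and 35.0 CPM with siPANAD, 70.2 and 67.8 CPM with NC). In nuclei PFKP fell by 1.12 ± 0.13 in HepG2, and had a log2 fold change of -0.20 ± 0.09 in SNU-449 (adjusted p = 0.0624). PFKL, the liver form, ranged over 162 to 495 CPM in SNU-449 and 150 to 321 CPM in HepG2, and no comparison passed.

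The aldolases changed in opposite directions in the nuclei of the 2 lines. ALDOC was at 1.15 and 2.2 CPM in SNU-449 siPANAD nuclei, against 2.80 and 3.11 CPM in NC nuclei, and at 20.8 and 25.3 CPM in HepG2 siPANAD nuclei, against 15.8 and 16.4 CPM in NC nuclei. In HepG2 cytoplasm it was at 72.1 and 82.3 CPM with siPANAD, against 56.5 and 48.7 CPM with NC. ALDOC thus fell by 0.81 ± 0.26 in SNU-449 nuclei and rose by 0.51 ± 0.14 and 0.56 ± 0.13 in HepG2 nucleus and cytoplasm. ALDOA, the main aldolase, was at 15.7 and 15.3 CPM in SNU-449 siPANAD nuclei, against 10.3 and 10.5 CPM in NC nuclei, and at 7.27 and 9.03 CPM in HepG2 siPANAD nuclei, against 11.6 and 13.9 CPM in NC nuclei. Its nuclear log2 fold changes were 0.58 ± 0.13 in SNU-449 and -0.65 ± 0.17 in HepG2, but 42.3% of its exonic bases overlap another gene on the same strand, so its counts may be incomplete. ALDOC missed the threshold without SNU-449 nucleus siPANAD replicate 1 (-0.43 in that nucleus), without HepG2 nucleus siPANAD replicate 2 (0.35) and without HepG2 cytoplasm siPANAD replicate 2 (0.42), and ALDOA in HepG2 nuclei did so without siPANAD replicate 1 (adjusted p up to 0.0664). GPI, the isomerase after hexokinase, passed in no comparison, with log2 values between -0.21 and 0.20.

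Of the 8 genes of the lower, energy-yielding steps, 1 fell in SNU-449 nuclei, 1 rose and 2 fell in SNU-449 cytoplasm, 3 fell in HepG2 nuclei and 4 fell in HepG2 cytoplasm, and no change reached 2-fold. Of all genes, 22.1% rose and 23.9% fell in SNU-449 nuclei, and 19.6% and 20.1% in SNU-449 cytoplasm. The shares were 22.0% and 23.6% in HepG2 nuclei, and 23.7% and 24.2% in HepG2 cytoplasm. PKM, the pyruvate kinase of most tissues, was at 3690 and 3586 CPM in SNU-449 siPANAD cytoplasm, against 4534 and 4532 CPM in NC cytoplasm. In HepG2 nuclei it was at 404 and 442 CPM with siPANAD, against 808 and 818 CPM with NC, and in HepG2 cytoplasm at 1364 and 1625 CPM with siPANAD, against 2969 and 2428 CPM with NC. It fell by 0.32 ± 0.09 in SNU-449 cytoplasm and by 0.94 ± 0.15 and 0.85 ± 0.15 in HepG2 nucleus and cytoplasm. ENO1, the main enolase, fell by 0.80 ± 0.14 in HepG2 nuclei and 0.66 ± 0.14 in HepG2 cytoplasm, at 2721 and 2883 CPM with siPANAD against 4632 and 4207 CPM with NC in the cytoplasm. In SNU-449 its log2 values of -0.11 ± 0.09 and -0.06 ± 0.09 in nucleus and cytoplasm did not pass. ENO2, the neuronal enolase, passed nowhere.

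GAPDH, often used as a constant control, was at 974 and 931 CPM in SNU-449 siPANAD nuclei, against 953 and 1028 CPM in NC nuclei, and at 7151 and 6849 CPM in siPANAD cytoplasm, against 5869 and 5591 CPM in NC cytoplasm. In HepG2 it was at 634 and 771 CPM in siPANAD nuclei, against 890 and 825 CPM in NC nuclei, and at 6776 and 8046 CPM in siPANAD cytoplasm, against 7073 and 5271 CPM in NC cytoplasm. siPANAD and NC did not overlap in SNU-449 cytoplasm or HepG2 nuclei and overlapped in the other 2 sets, and of the 4 comparisons only the rise in SNU-449 cytoplasm passed the test (0.29 ± 0.09, adjusted p = 0.01). LDHA, which turns pyruvate into lactate, was at 193 and 176 CPM in SNU-449 siPANAD nuclei against 227 and 216 CPM in NC nuclei, and at 546 and 515 CPM in siPANAD cytoplasm against 641 and 549 CPM in NC cytoplasm. HepG2 had 281 and 300 CPM in siPANAD nuclei against 427 and 446 CPM in NC nuclei, and 1395 and 1554 CPM in siPANAD cytoplasm against 1706 and 2160 CPM in NC cytoplasm. LDHA was lower in every siPANAD library of these sets than in the NC libraries; it fell by 0.26 ± 0.09 in SNU-449 nuclei and by 0.59 ± 0.14 and 0.39 ± 0.14 in HepG2 nucleus and cytoplasm, while the change of -0.17 ± 0.09 in SNU-449 cytoplasm did not pass.

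PGK1, the first step that yields ATP, was at 1901 and 2027 CPM in SNU-449 siPANAD cytoplasm against 2495 and 2511 CPM in NC cytoplasm, and at 825 and 976 CPM in HepG2 siPANAD cytoplasm against 992 and 1315 CPM in NC cytoplasm. It fell by 0.35 ± 0.09 in SNU-449 cytoplasm and by 0.36 ± 0.15 in HepG2 cytoplasm, where its adjusted p of 0.0498 was near the threshold. Several of the small changes of the lower steps rested on single libraries. GAPDH and PKM in SNU-449 cytoplasm missed the threshold without NC replicate 2 or either siPANAD library (adjusted p up to 0.0956 and 0.0893), and PGK1 there without siPANAD replicate 1 (0.0996). In HepG2 cytoplasm PGK1 and LDHA missed it without NC replicate 2 (log2 -0.14 and -0.21) or siPANAD replicate 1, and PGK1 also without either HepG2 nucleus siPANAD library and with the replicate number as a block; LDHA in SNU-449 nuclei missed it without NC replicate 1 or siPANAD replicate 2 (up to 0.196).

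The regulatory kinases PFKFB3, PFKFB4 and PDK1 differed between lines and fractions. PFKFB3, which drives glycolysis by making fructose 2,6-bisphosphate, was at 1073 and 1053 CPM in SNU-449 siPANAD nuclei, against 639 and 696 CPM in NC nuclei. It was at 4.30 and 4.36 CPM in HepG2 siPANAD nuclei against 8.47 and 11.1 CPM in NC nuclei, and at 3.84 and 3.45 CPM in HepG2 siPANAD cytoplasm against 10.2 and 13.4 CPM in NC cytoplasm. PFKFB3 rose by 0.67 ± 0.09 in SNU-449 nuclei, had 0.01 ± 0.09 in SNU-449 cytoplasm (adjusted p = 0.945), and fell by 1.18 ± 0.19 and 1.71 ± 0.21 in HepG2 nucleus and cytoplasm. Its HepG2 level was thus lower with siPANAD in both fractions, from a base far below that of SNU-449.

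PFKFB4, the other inducible isozyme, was at 32.6 and 34.3 CPM in SNU-449 siPANAD nuclei against 56.2 and 57.8 CPM in NC nuclei, but at 63.4 and 64.8 CPM in siPANAD cytoplasm against 47.4 and 48.5 CPM in NC cytoplasm. The HepG2 level was 40.8 and 47.0 CPM in siPANAD nuclei against 26.6 and 35.3 CPM in NC nuclei, and 72.3 and 80.1 CPM in siPANAD cytoplasm against 38.3 and 47.9 CPM in NC cytoplasm. It fell by 0.77 ± 0.10 in SNU-449 nuclei and rose in the other 3 sets, by 0.42 ± 0.10 in SNU-449 cytoplasm and by 0.50 ± 0.15 and 0.82 ± 0.15 in HepG2 nucleus and cytoplasm. It was the 1 member that rose in the cytoplasm of both lines, as did 10.9% of all genes tested in both. Its rise in HepG2 nuclei missed the threshold without NC replicate 1 (0.30) or siPANAD replicate 2 (adjusted p up to 0.163). PDK1 is a kinase that inhibits pyruvate dehydrogenase. In nuclei it fell by 0.50 ± 0.12 in SNU-449 (13.1 and 12.9 CPM with siPANAD, 19.1 and 17.7 CPM with NC) and by 0.73 ± 0.13 in HepG2 (16.5 and 17.4 CPM with siPANAD, 29.4 and 26.9 CPM with NC). Its cytoplasmic values of -0.06 ± 0.12 in SNU-449 and 0.07 ± 0.13 in HepG2 did not pass.

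Of the 4 secreted and cell-surface targets of the hypoxia response, VEGFA and ADM fell in all 4 comparisons. VEGFA, the endothelial growth factor, was at 91.9 and 84.1 CPM in SNU-449 siPANAD nuclei against 210 and 207 CPM in NC nuclei, and at 52.6 and 50.9 CPM in siPANAD cytoplasm against 127 and 140 CPM in NC cytoplasm. In HepG2 it was at 468 and 557 CPM in siPANAD nuclei against 1110 and 1111 CPM in NC nuclei, and at 74.4 and 90.4 CPM in siPANAD cytoplasm against 304 and 285 CPM in NC cytoplasm. Each siPANAD pair lay below its NC pair, and the falls were 1.25 ± 0.09 and 1.37 ± 0.10 in SNU-449 nucleus and cytoplasm and 1.11 ± 0.14 and 1.84 ± 0.14 in HepG2 nucleus and cytoplasm.

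ADM encodes adrenomedullin, a vasodilator peptide. It was at 220 and 225 CPM in SNU-449 siPANAD nuclei against 381 and 422 CPM in NC nuclei, and at 18.8 and 20.5 CPM in siPANAD cytoplasm against 69.2 and 68.8 CPM in NC cytoplasm. HepG2 cells held 18.6 and 20.9 CPM in siPANAD nuclei against 51.7 and 76.6 CPM in NC nuclei, and 8.08 and 7.06 CPM in siPANAD cytoplasm against 58.1 and 56.3 CPM in NC cytoplasm. The falls were 0.85 ± 0.09 and 1.81 ± 0.11 in SNU-449 nucleus and cytoplasm and 1.70 ± 0.15 and 2.92 ± 0.18 in HepG2 nucleus and cytoplasm, larger in the cytoplasm of each line.

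ANGPTL4, a secreted inhibitor of lipoprotein lipase, was at 42.4 and 41.7 CPM in SNU-449 siPANAD nuclei against 90.9 and 91.2 CPM in NC nuclei, and at 19.5 and 16.5 CPM in siPANAD cytoplasm against 59.6 and 58.3 CPM in NC cytoplasm. In HepG2 cytoplasm it was at 10.6 and 12.9 CPM with siPANAD against 23.0 and 15.8 CPM with NC. It fell by 1.11 ± 0.10 and 1.72 ± 0.11 in SNU-449 nucleus and cytoplasm and by 0.71 ± 0.19 in HepG2 cytoplasm, and its value of -0.17 ± 0.17 in HepG2 nuclei did not pass. CA9 was at 51.0 and 57.9 CPM in HepG2 siPANAD nuclei against 61.3 and 80.6 CPM in NC nuclei, and at 58.6 and 59.7 CPM in siPANAD cytoplasm against 71.9 and 69.1 CPM in NC cytoplasm. The nuclear fall of 0.38 ± 0.13 passed and the cytoplasmic -0.25 ± 0.14 did not (adjusted p = 0.129); 38.5% of the exonic bases of CA9 overlap ARHGEF39 on the other strand. The CA9 call was missed without any 1 of 4 libraries, namely HepG2 nucleus NC replicate 2, HepG2 nucleus siPANAD replicate 1 and both HepG2 cytoplasm siPANAD libraries (log2 down to -0.19, adjusted p up to 0.308).

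**Figure D3:**
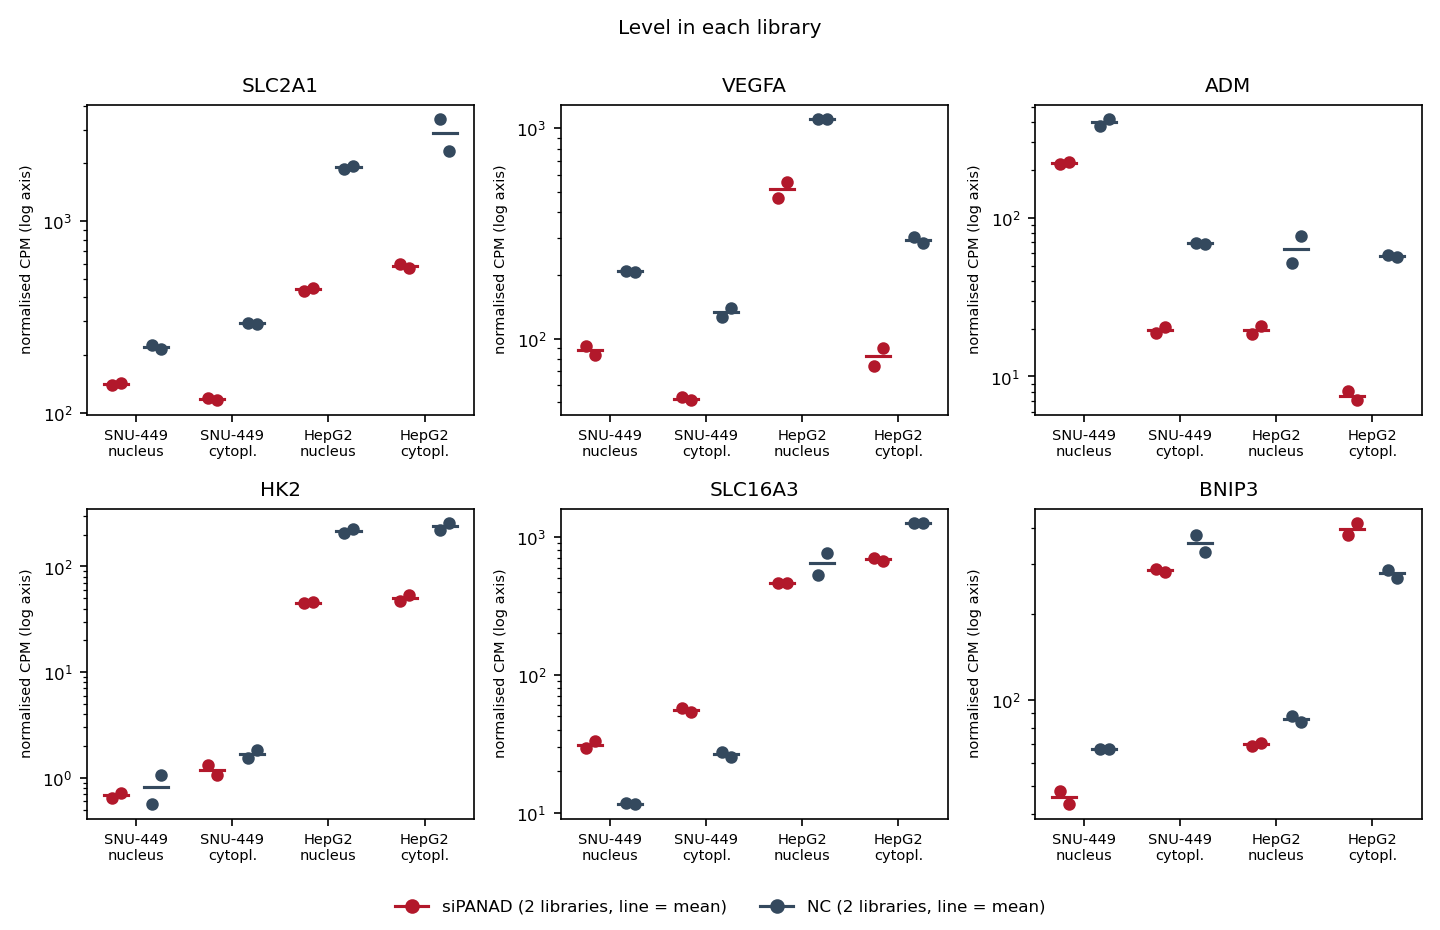
Level of 6 genes in each library (y, TMM-normalised CPM, log axis), siPANAD left of NC within each line and fraction, with points for libraries and a line for the mean of 2. SLC2A1, VEGFA and ADM lie below NC in all 4 sets, HK2 in both HepG2 sets and, without passing the test, in SNU-449 cytoplasm, SLC16A3 above NC in SNU-449 and below it in HepG2, and BNIP3 above NC in HepG2 cytoplasm and below it in SNU-449.

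Of the 3 oxygen-sensing and chromatin genes, 1 fell in HepG2 nuclei and 2 in HepG2 cytoplasm, and of the 2 tested in SNU-449, 1 fell in the nucleus. Of all genes, 23.6% fell in HepG2 nuclei, 24.2% in HepG2 cytoplasm and 23.9% in SNU-449 nuclei. EGLN3, the most hypoxia-inducible of the prolyl hydroxylases, was at 1.99 and 2.07 CPM in HepG2 siPANAD nuclei against 4.58 and 6.40 CPM in NC nuclei, and at 4.24 and 4.31 CPM in siPANAD cytoplasm against 11.7 and 11.7 CPM in NC cytoplasm. It fell by 1.44 ± 0.22 and 1.45 ± 0.21 there, and lay between 0.0427 and 0.440 CPM in SNU-449. EGLN1, the main oxygen sensor, was at 10.4 and 16.9 CPM in HepG2 siPANAD cytoplasm against 21.4 and 39.8 CPM in NC cytoplasm, and at 5.30 and 5.55 CPM in SNU-449 siPANAD nuclei against 6.37 and 8.17 CPM in NC nuclei. Its falls of 1.18 ± 0.35 in HepG2 cytoplasm and 0.42 ± 0.17 in SNU-449 nuclei each missed the threshold without single libraries: HepG2 cytoplasm siPANAD replicate 1 or either HepG2 nucleus siPANAD library (adjusted p up to 0.0834), and SNU-449 nucleus NC replicate 2 or either siPANAD library of those nuclei (up to 0.342). KDM3A, a histone demethylase, passed in no comparison.

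The 5 intracellular stress targets split. NDRG1, a stress and differentiation protein, fell by 1.01 ± 0.16 in SNU-449 cytoplasm, at 9.75 and 7.51 CPM with siPANAD against 16.4 and 18.3 CPM with NC, and had -0.13 ± 0.22 in SNU-449 nuclei, which did not pass. The HepG2 values were 33.2 and 37.2 CPM in siPANAD nuclei against 92.7 and 95.0 CPM in NC nuclei, and 105 and 122 CPM in siPANAD cytoplasm against 304 and 272 CPM in NC cytoplasm, falls of 1.42 ± 0.13 and 1.35 ± 0.13. BNIP3, a mitophagy receptor, was at 48.1 and 43.1 CPM in SNU-449 siPANAD nuclei against 67.1 and 67.6 CPM in NC nuclei, and at 288 and 280 CPM in siPANAD cytoplasm against 377 and 329 CPM in NC cytoplasm. In HepG2 it was at 69.1 and 70.7 CPM in siPANAD nuclei against 88.1 and 83.5 CPM in NC nuclei, and at 377 and 417 CPM in siPANAD cytoplasm against 285 and 268 CPM in NC cytoplasm.

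BNIP3 was therefore the 1 member that fell in SNU-449 cytoplasm (by 0.31 ± 0.09) and rose in HepG2 cytoplasm (by 0.52 ± 0.12), as did 1.37% of genes tested in both lines; it fell by 0.56 ± 0.10 in SNU-449 nuclei. The cytoplasmic fall in SNU-449 missed the threshold without NC replicate 1 (-0.21) or either siPANAD library (adjusted p up to 0.13). MXI1, an antagonist of MYC, fell in HepG2 cytoplasm by 0.64 ± 0.14 (23.4 and 20.5 CPM with siPANAD, 34.1 and 34 CPM with NC). DDIT4, an inhibitor of mTORC1, fell there by 0.87 ± 0.17 (376 and 382 CPM with siPANAD, 663 and 723 CPM with NC), and 41.2% of its exonic bases overlap its antisense gene. Neither passed elsewhere, and ANKRD37, at 1.62 to 4.49 CPM over all 16 libraries, passed nowhere.

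The 34 genes were mostly enriched in the cytoplasm of NC cells relative to the typical gene. In SNU-449, 10 of 31 were higher and 19 lower in the nucleus, with 43.5% and 36.2% of all genes called, and the median log2 ratio of nucleus to cytoplasm was -0.76, against 0.22 for all genes. In HepG2, 3 of 34 were higher and 22 lower in the nucleus, with 39.4% and 37.7% of all genes called, and the median was -0.78, against 0.04. The lower glycolytic genes lay furthest to the cytoplasm, with medians of -2.04 in SNU-449 and -2.18 in HepG2; GAPDH was at -2.53 ± 0.10 in SNU-449 and -2.85 ± 0.17 in HepG2. ENO2, KDM3A and VEGFA were the 3 members higher in the nucleus of both lines, at 1.19 ± 0.09, 1.16 ± 0.11 and 0.64 ± 0.09 in SNU-449 and 1.38 ± 0.14, 1.38 ± 0.13 and 1.92 ± 0.14 in HepG2. ADM was the most nuclear member in SNU-449 (2.54 ± 0.10), while in HepG2 its ratio of 0.17 ± 0.15 did not pass. These ratios are not amounts per cell, and with library totals as the scale, which set the median of all genes at 1.06 in SNU-449 and 0.66 in HepG2 (log2), 6 of the members' ratios changed sign in SNU-449 and 9 in HepG2, of which 6 in each line passed the test on at least one of the scales.

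**Figure D4:**
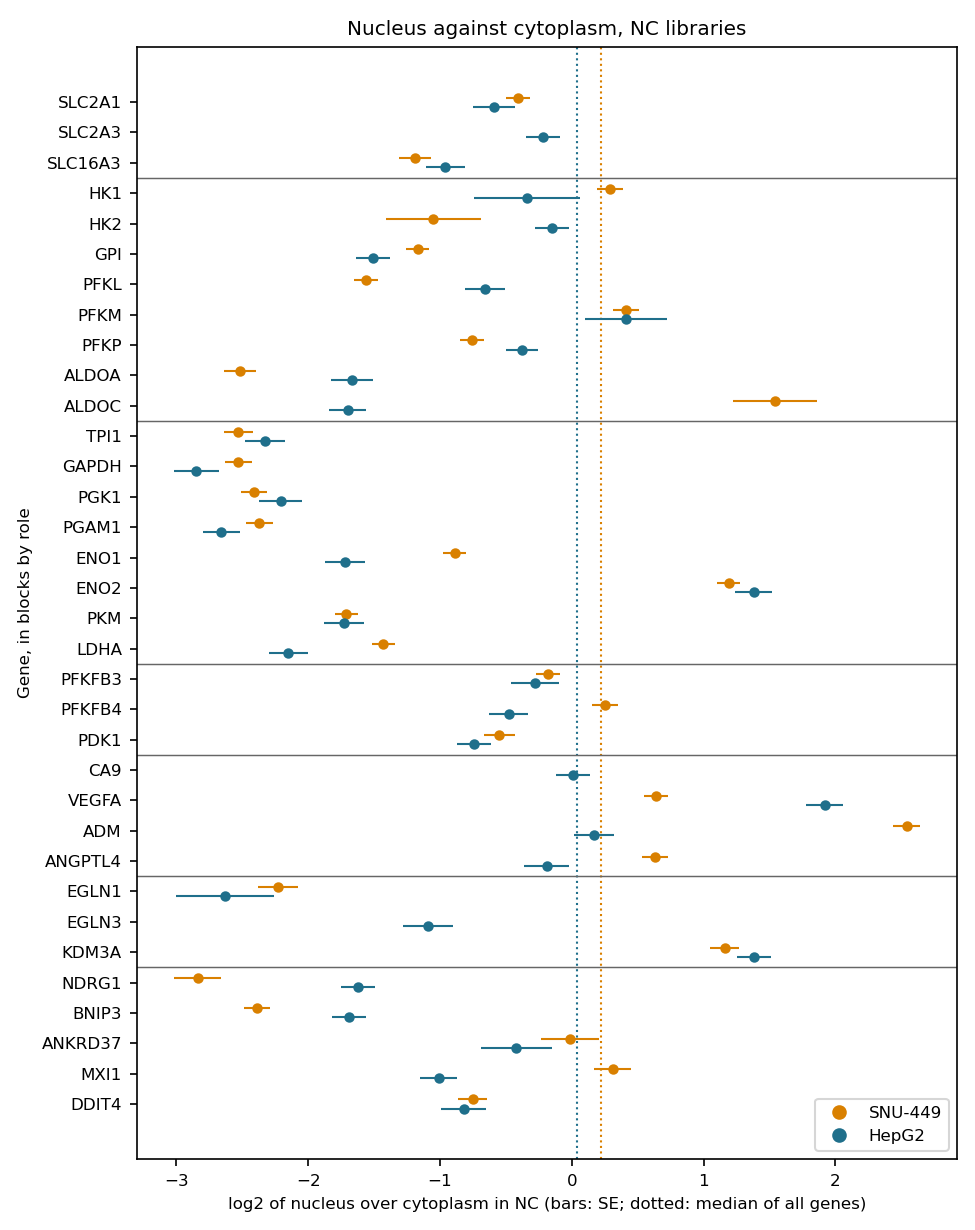
Log2 ratio of nucleus over cytoplasm in NC libraries (x, bars are standard errors) for each of the 34 genes, in SNU-449 and HepG2, with dotted lines at the median of all genes in each line. The lower glycolytic genes lie left of both dotted lines, with ENO2 as the exception, and VEGFA and KDM3A lie to the right in both lines.

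The shift of this ratio with siPANAD asks whether the nuclear and the cytoplasmic effect differed in size. In SNU-449, 8 of 31 members shifted to the nucleus and 1 to the cytoplasm, with 9.69% and 10.5% of all genes called. In HepG2, 4 of 34 shifted to the nucleus and 2 to the cytoplasm, with 4.91% and 4.98% of all genes called. ADM was the 1 member that shifted to the nucleus in both lines, by 0.96 ± 0.14 in SNU-449 and 1.22 ± 0.23 in HepG2. The others were SLC2A1 (0.68 ± 0.12), PFKM (0.92 ± 0.14), ALDOA (0.48 ± 0.17), PKM (0.49 ± 0.13), PFKFB3 (0.66 ± 0.13), ANGPTL4 (0.60 ± 0.15) and NDRG1 (0.88 ± 0.28) in SNU-449. In HepG2 they were SLC2A3 (1.20 ± 0.18), VEGFA (0.72 ± 0.20) and MXI1 (0.86 ± 0.19). PFKFB4 shifted to the cytoplasm in SNU-449 (-1.19 ± 0.14), as did PDK1 (-0.81 ± 0.18) and BNIP3 (-0.82 ± 0.18) in HepG2.

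These counts depended on single libraries. Without SNU-449 cytoplasm siPANAD replicate 2, 4 members shifted to the nucleus in SNU-449, and without SNU-449 nucleus NC replicate 1, 2 shifted to the cytoplasm. In HepG2 none shifted to the cytoplasm without HepG2 cytoplasm siPANAD replicate 2, and 4 did without HepG2 cytoplasm NC replicate 1. SLC2A1, PFKM, PFKFB3, PFKFB4 and ADM in SNU-449 and SLC2A3, ADM and MXI1 in HepG2 kept their calls without any single library. Leaving out libraries does not show whether reads exchanged with SLC2A14 contribute to the SLC2A3 shift, which was not tested.

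The test of the difference between the lines, in 1 fit of all 16 libraries, gave 14 members in the nucleus and 14 in the cytoplasm, with 11 called in both. In each fraction the signed difference, the SNU-449 log2 fold change minus that of HepG2, was positive for 10 and negative for 4. A positive difference can be a smaller fall in SNU-449, as for SLC2A1 and ADM. The backgrounds were 11.3% positive and 9.61% negative of 20459 genes in the nucleus and 9.17% and 8.98% in the cytoplasm. The share of all genes called in both fractions was not computed. SLC16A3, with the smallest adjusted p of the members in each fraction, differed by 1.90 ± 0.19 in both, and HK2 by 1.99 ± 0.38 in the nucleus and 1.71 ± 0.36 in the cytoplasm. ANGPTL4 was lowered more in SNU-449, by a difference of -0.96 ± 0.20 in the nucleus and -1.05 ± 0.22 in the cytoplasm. For VEGFA the difference was -0.15 ± 0.17 in the nucleus (adjusted p = 0.616) and 0.42 ± 0.17 in the cytoplasm (adjusted p = 0.0878), which does not show equal effects.

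Upstream of these genes, 15 regulators of the HIF pathway were listed, of which 14 were tested in SNU-449 and 13 in HepG2. In SNU-449, 4 rose and 2 fell in the nucleus, and 3 rose and 2 fell in the cytoplasm. In HepG2, 3 rose and 6 fell in the nucleus, and 3 rose and 5 fell in the cytoplasm. The shares of all genes called were 22.1% higher and 23.9% lower in SNU-449 nuclei, 19.6% and 20.1% in SNU-449 cytoplasm, 22.0% and 23.6% in HepG2 nuclei and 23.7% and 24.2% in HepG2 cytoplasm. The 3 higher in HepG2 nuclei became 1 without NC replicate 1 of those nuclei. The 2 lower became 1 in SNU-449 nuclei without NC replicate 1 or siPANAD replicate 2 of those nuclei, and in SNU-449 cytoplasm without siPANAD replicate 2 of that fraction. EPAS1, the HIF-2 alpha subunit, fell in all 4 comparisons. It was at 9.19 and 9.41 CPM in SNU-449 siPANAD nuclei against 25.3 and 22.6 CPM in NC nuclei, and at 7.58 and 7.30 CPM in siPANAD cytoplasm against 24.1 and 25.2 CPM in NC cytoplasm. HepG2 libraries gave 72.4 and 82.8 CPM in siPANAD nuclei against 266 and 239 CPM in NC nuclei, and 92.7 and 105 CPM in siPANAD cytoplasm against 362 and 304 CPM in NC cytoplasm. Those falls were 1.37 ± 0.13 and 1.73 ± 0.15 in SNU-449 nucleus and cytoplasm and 1.70 ± 0.14 and 1.75 ± 0.14 in HepG2 nucleus and cytoplasm.

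HIF1A, the HIF-1 alpha subunit, whose protein rather than mRNA is the usual point of control, passed the test in 2 of the 4 comparisons. It was at 118 and 140 CPM in SNU-449 siPANAD nuclei against 139 and 150 CPM in NC nuclei, at 329 and 441 CPM in siPANAD cytoplasm against 327 and 263 CPM in NC cytoplasm, and at 81.2 and 103 CPM in HepG2 siPANAD cytoplasm against 95.7 and 88.6 CPM in NC cytoplasm. In HepG2 nuclei its values were 47.1 and 49.2 CPM with siPANAD against 80.4 and 56.6 CPM with NC. The groups overlapped in the nuclei of SNU-449 and the cytoplasm of HepG2, with log2 fold changes of -0.16 ± 0.13 and 0.00 ± 0.15 that did not pass. The rise of 0.39 ± 0.13 in SNU-449 cytoplasm missed the threshold without NC replicate 2, siPANAD replicate 2 (0.16) or either SNU-449 nucleus NC library, and the fall of 0.51 ± 0.15 in HepG2 nuclei did so without NC replicate 1 (-0.25) or siPANAD replicate 1. ARNT, the shared partner, rose by 0.54 ± 0.12 in SNU-449 nuclei and fell by 0.51 ± 0.14 in SNU-449 cytoplasm, the fall with an adjusted p of 0.0507 without siPANAD replicate 2, and did not pass in HepG2. VHL, the ubiquitin ligase that removes both alpha subunits, rose in SNU-449 cytoplasm by 0.91 ± 0.10 (134 and 155 CPM with siPANAD, 78.7 and 75.0 CPM with NC) and passed nowhere else.

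Of 38 further hypoxia-inducible genes, 4 of 35 tested rose and 18 fell in SNU-449 nuclei, and 6 rose and 19 fell in SNU-449 cytoplasm. In HepG2, 5 of 34 rose and 19 fell in the nucleus, and 7 rose and 18 fell in the cytoplasm. The 4 higher in SNU-449 nuclei became 2 without NC replicate 2 or siPANAD replicate 2 of those nuclei and with DESeq2, and the 5 higher in HepG2 nuclei became 3 without NC replicate 1 of those nuclei. Their median log2 fold changes were -0.38 and -0.43 in SNU-449 nucleus and cytoplasm and -0.38 and -0.43 in HepG2 nucleus and cytoplasm. The lower calls were 51.4% and 54.3% of those tested in SNU-449 nucleus and cytoplasm, against 23.9% and 20.1% of all genes. In HepG2 nucleus and cytoplasm they were 55.9% and 52.9%, against 23.6% and 24.2% of all genes. This list was chosen with earlier results of these data known, so the excess is a description and not independent evidence. STC2, a secreted glycoprotein, was at 96.0 and 90.4 CPM in SNU-449 siPANAD cytoplasm against 389 and 438 CPM in NC cytoplasm, and at 153 and 139 CPM in HepG2 siPANAD cytoplasm against 550 and 567 CPM in NC cytoplasm. ERO1A, an oxidase of the endoplasmic reticulum, was at 21.0 and 21.8 CPM in SNU-449 siPANAD cytoplasm against 81.8 and 79.7 CPM in NC cytoplasm, and at 37.7 and 35.5 CPM in HepG2 siPANAD cytoplasm against 170 and 160 CPM in NC cytoplasm. STC2 fell by 2.15 ± 0.10 in SNU-449 cytoplasm and by 1.94 ± 0.14 in HepG2 cytoplasm, and ERO1A by 1.92 ± 0.11 and 2.17 ± 0.14.

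Other genes of glucose and pyruvate metabolism did not share a direction. Of 43 listed, 8 of 31 tested rose and 9 fell in SNU-449 nuclei, and 10 rose and 6 fell in SNU-449 cytoplasm. In HepG2, 13 of 37 rose and 10 fell in the nucleus, and 15 rose and 8 fell in the cytoplasm. These counts stand against the same shares of all genes as those of the regulators, 22.0% higher and 23.6% lower in HepG2 nuclei, for example. The 10 lower in HepG2 nuclei became 5 without either siPANAD library of those nuclei and 6 with library totals as the scale. PGM1, which links glycogen to glycolysis, fell in all 4 comparisons. It was at 11.5 and 10.6 CPM in SNU-449 siPANAD nuclei against 23.5 and 26.5 CPM in NC nuclei, and at 21.0 and 20.5 CPM in siPANAD cytoplasm against 72.2 and 76.7 CPM in NC cytoplasm. The HepG2 levels were 14.8 and 17.3 CPM in siPANAD nuclei against 38.2 and 42.3 CPM in NC nuclei, and 52.1 and 55.5 CPM in siPANAD cytoplasm against 206 and 220 CPM in NC cytoplasm. LDHD, the mitochondrial D-lactate dehydrogenase, rose in all 4, by 1.08 ± 0.18 and 1.26 ± 0.19 in SNU-449 nucleus and cytoplasm and by 1.12 ± 0.15 and 1.54 ± 0.16 in HepG2 nucleus and cytoplasm.

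**Figure D5:**
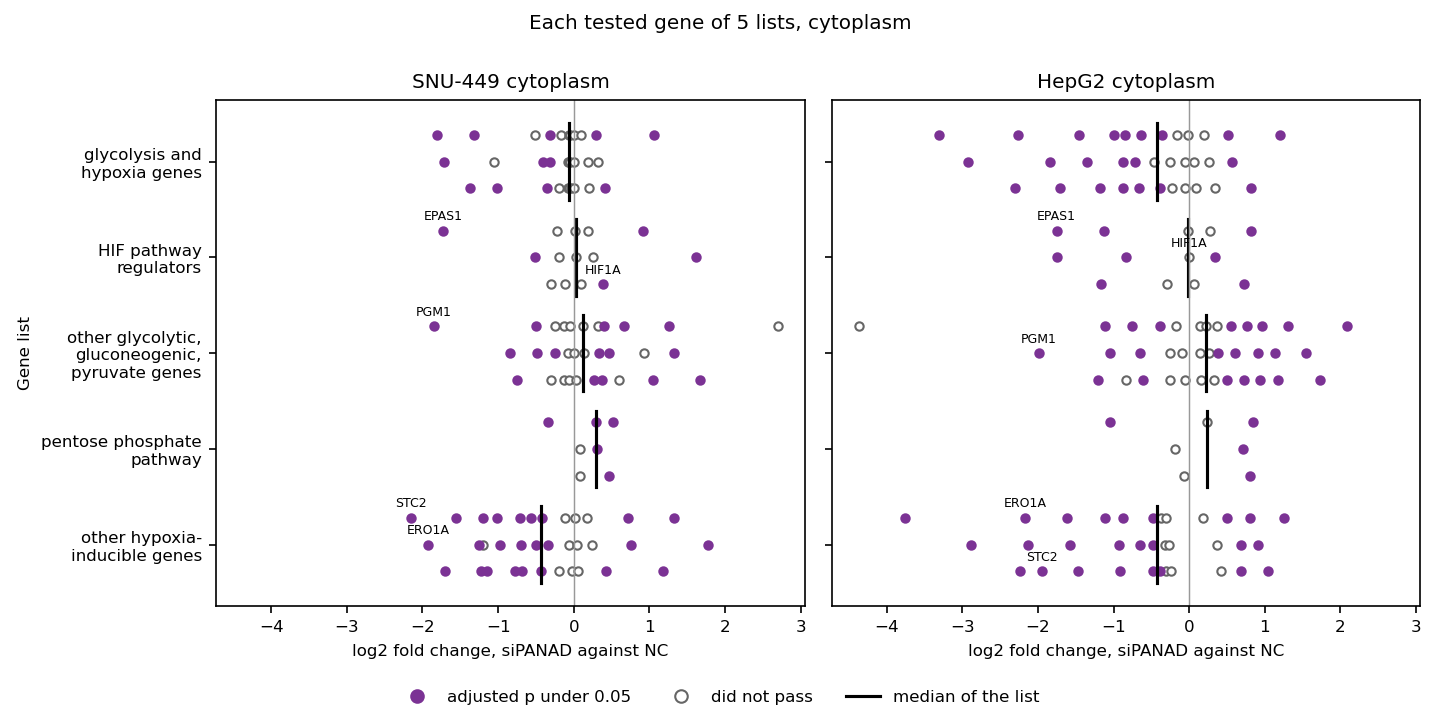
Log2 fold change of siPANAD against NC in the cytoplasm of SNU-449 and HepG2 (x) for each tested gene of 5 lists (y, spread vertically for legibility), filled where the adjusted p was under 0.05, with a black bar at the median of the list. The medians of the 34 genes are -0.06 in SNU-449 and -0.43 in HepG2, and those of the other hypoxia-inducible genes are -0.43 in both.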

How the data were processed

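RNA was measured in nuclear and cytoplasmic fractions of SNU-449 and HepG2. The authors deposited unnormalised counts for each gene, with a table for either line; library construction kept strand, per the labels' protocols. Trim Galore 0.6.4, HISAT2 2.2.1 and hg38 are named per the submitters' processing notes; the counting program, annotation and use of strand are not given in the sources used here, so overlapping and antisense genes may share reads. Of 67938 identifiers, 61444 matched a symbol, and unmatched ones held 0.0414% (SNU-449) and 0.0306% (HepG2) of counts. Groups and replicate numbers came from the sample labels.

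Counts were fitted in R 4.3.3 with edgeR 4.0.16: filterByExpr (minimum count 10), TMM scaling, glmQLFit (robust) and the two-sided quasi-likelihood F-test, 8 libraries of a line together, and all 16 for comparisons between lines. Adjusted p is by Benjamini-Hochberg over all genes tested, with a threshold of 0.05. The common coefficient of biological variation was 0.0728 in SNU-449 and 0.101 in HepG2. Replicates of a group correlated across genes at 0.992 to 0.996, which hides a wider spread in HepG2 cytoplasm NC. Between replicates, the chi-square per degree of freedom over genes was 33.0 in that group and 4.48 to 12.3 in the others. The HepG2 cytoplasm NC libraries held 17727305 and 30321908 counts. The procedure was run on simulated counts with few changed genes, a fixed spread and no difference between fractions. These data differ on those points, so that run does not bear on the calls given here. Limits from a count of 0 cover counting error only. Positions and overlaps came from the supplied GENCODE annotation of GRCh38.

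The members and gene lists were chosen with earlier results of these data known. All members could be named; per-library values were given for members called alike or oppositely in both lines, those with the largest changes, 7 set members (GAPDH, LDHA, HK2, SLC2A1, SLC2A3, CA9, VEGFA) and 4 regulators; values of other members and pathway genes were added after they were seen. Alternatives were RLE factors, library totals, DESeq2 1.42.0, no filter, a replicate block, each library left out, and only the 4 libraries compared.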

Additional observations from a re-analysis of the deposited data

Results flagged for a closer look

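The effect of siPANAD differed between SNU-449 and HepG2 for 17 of the 34 genes in at least 1 fraction, by edgeR's quasi-likelihood test of the difference itself (SNU-449 effect minus HepG2 effect, log2, adjusted p under 0.05 over 20459 genes). Of all genes, 11.3% were called higher and 9.61% lower in the nucleus, and 9.17% and 8.98% in the cytoplasm. The share of all genes called in at least 1 fraction was not computed. A higher effect here is a more positive or less negative log2 fold change, not a stronger one. In the nucleus the effect was higher in SNU-449 for SLC2A1 (1.46), SLC16A3 (1.90), HK2 (1.99), PFKP (0.91), ALDOA (1.21), ENO1 (0.68), PKM (1.10), PFKFB3 (1.83), ADM (0.84) and NDRG1 (1.27). It was lower in SNU-449 for PFKM (-0.88), ALDOC (-1.34), PFKFB4 (-1.29) and ANGPTL4 (-0.96). In the cytoplasm it was higher in SNU-449 for SLC2A1 (0.94), SLC16A3 (1.90), HK2 (1.71), PFKP (0.55), ENO1 (0.55), PKM (0.49), PFKFB3 (1.68), ADM (1.07), MXI1 (0.79) and DDIT4 (0.80). It was lower there for PFKM (-1.03), ALDOC (-1.65), ANGPTL4 (-1.05) and BNIP3 (-0.87). Some of these differences rest on few counts in 1 line. In SNU-449 cytoplasm ALDOC had 7 and 6 counts with siPANAD and 15 and 13 with NC. HK2 had 17 and 15 counts there with siPANAD and 21 and 26 with NC. In SNU-449 nuclei HK2 had 15 and 17 counts with siPANAD and 13 and 25 with NC. PFKM had 31 and 32 counts in HepG2 siPANAD cytoplasm and 14 and 28 in NC cytoplasm. SLC16A3 lay above NC in all 4 siPANAD libraries of SNU-449 and below NC in all 4 of HepG2.

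Of the cytoplasmic differences, those of PFKM, PFKP, ALDOC, ENO1, PKM and DDIT4 missed the threshold when single libraries were left out, with adjusted p up to 0.0555, 0.0836, 0.0862, 0.11, 0.279 and 0.108. For PFKM the library was HepG2 cytoplasm siPANAD replicate 2. For PFKP they were both siPANAD libraries of either cytoplasm and SNU-449 cytoplasm NC replicate 1. For ALDOC they were SNU-449 cytoplasm NC replicate 1 and siPANAD replicate 2, and for ENO1 these and HepG2 cytoplasm siPANAD replicate 1. For DDIT4 they were NC replicate 2 of either cytoplasm. PKM missed the threshold under 12 of 21 settings, among them each of the 4 SNU-449 cytoplasm libraries, HepG2 cytoplasm NC replicate 1 and siPANAD replicate 1, and the nuclear siPANAD libraries of both lines. The nuclear difference of PFKM missed it without HepG2 nucleus siPANAD replicate 1 (-0.74).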

How the results depend on the processing

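Over the 34 genes and 23 other pathway genes, 9137 of 9571 values under other settings stayed on their side of the threshold (222 of them with the other sign but not called on either setting), 290 lost the call, 121 gained it and 23 reversed. All 23 reversals, in which the value was called on at least one setting, came from scaling by library totals in the NC ratio of nucleus to cytoplasm, which moved the median of all genes to 1.06 in SNU-449 and 0.66 in HepG2. In SNU-449 they were SLC2A1 (0.44), PFKP (0.09), PFKFB3 (0.67), PDK1 (0.30), ANKRD37 (0.84), DDIT4 (0.10), EPAS1 (0.81), ARNT (0.78), ARNT2 (0.38), LDHD (0.58), ERO1A (0.12) and LOX (0.63). In HepG2 they were SLC2A1 (0.04), SLC2A3 (0.40), HK2 (0.47), PFKP (0.24), PFKFB4 (0.13), ANGPTL4 (0.43), HIF1A (0.20), EPAS1 (0.23), VHL (0.44), CREBBP (0.62) and STC2 (0.31).

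Library totals also gave 3463 genes lower in SNU-449 nuclei, 4036 lower and 9 members higher in HepG2 nuclei, 2665 higher and 392 lower shifts in HepG2 with 7 and 1 members, and 2966 higher and 1217 lower cytoplasmic line differences. They also ended the calls against NC of SLC16A3, CA9 and HIF1A in HepG2 nuclei (-0.32, -0.22 and -0.35), LDHA and EGLN1 in SNU-449 nuclei (-0.21 and -0.37) and HIF1A in SNU-449 cytoplasm (0.42). DESeq2 ended those of ALDOC and EGLN1 in SNU-449 nuclei (-0.81 and -0.41). DESeq2 and no filter each gave 2 members shifted to the cytoplasm in SNU-449. Over fits without 1 library (a lone library is assumed to vary like the other groups), members higher ranged over 1 to 3 in HepG2 nuclei, and members at least 2-fold higher over 1 to 2 in SNU-449 nuclei. Shifts ranged over 1163 to 1994 genes lower, 4 to 8 members higher and 1 to 2 lower in SNU-449, and over 419 to 1217 genes higher, 414 to 1255 lower and 0 to 4 members lower in HepG2. The causes were not tested.

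Deviations of libraries with the same replicate number correlated at -0.26 to 0.14, so no shared deviation by number was seen. Low correlations cannot show that samples are unpaired, and whether the numbers pair them is not known. With the replicate number as a block, 17 members fell in HepG2 cytoplasm against 18 without it. Depth limits the members at 0 in SNU-449 to the bounds given.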

Other observations

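The pentose phosphate pathway, which branches from glycolysis to make NADPH and ribose, gave different counts in the 2 fractions. Of its 7 listed genes, 1 passed edgeR's quasi-likelihood test in SNU-449 nuclei, where it fell, and 4 rose and 1 fell in SNU-449 cytoplasm. In HepG2, 1 rose and 3 fell in the nucleus, and 3 rose and 1 fell in the cytoplasm. Of all genes, 22.1% were called higher and 23.9% lower in SNU-449 nuclei, 19.6% and 20.1% in SNU-449 cytoplasm, 22.0% and 23.6% in HepG2 nuclei and 23.7% and 24.2% in HepG2 cytoplasm. The counts were unstable: the 4 higher in SNU-449 cytoplasm became 2 without NC replicate 1 or siPANAD replicate 2 of that fraction, the 1 lower there became 0 under 11 other settings, the 1 higher in HepG2 nuclei ranged between 0 and 2, and the 0 higher in SNU-449 nuclei became 1 with library totals or without NC replicate 1 of those nuclei. PGLS, PGD and TKT, of the oxidative and the sugar-exchange arms, rose in the cytoplasm of both lines; PGD in SNU-449 missed the threshold without NC replicate 1 or siPANAD replicate 2 (adjusted p up to 0.102). The median log2 fold changes over the 7 genes were -0.07 and 0.29 in SNU-449 nucleus and cytoplasm and -0.31 and 0.24 in HepG2 nucleus and cytoplasm.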
